A study of Mus musculus with 6 samples.

Results

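The 8 genes described here, Tmem178, Srbd1, Prkce, Calm2, Epcam, Msh6, Ston1 and Gtf2a1l, lie on the same distal stretch of mouse chromosome 17 as Fshr, the gene for the receptor of follicle-stimulating hormone. They were chosen by name, with the contrast of FORKO and WT ovaries already known, and every probe set whose annotation gave exactly 1 of these symbols was taken. This gave 13 probe sets for 7 of the 8 genes, out of 18195 genes with such a probe set on the array. The annotation table lists no probe set for Calm2, which was not analysed here. Because the choice used the contrast, the members' differences are given as a description, with no p-value, and the number of them past the threshold of the fit over all probe sets is given beside the share of all probe sets and used as no support.

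Whole ovaries came from 8-month-old female mice, bred from heterozygotes on a 129T2 svEmsJ background. FORKO ovaries came from mice with the Fshr gene deleted in all its variants, and the labels name no cell type to which the deletion is restricted. WT ovaries came from wild-type mice of that breeding. Both ovaries were pooled, and each of the 3 FORKO and 3 WT samples has 1 Affymetrix Mouse Genome 430 2.0 array. On this array a probe set is a group of short probes against 1 or more transcripts. The titles and the genotype field name the FORKO samples as such, while other fields of the same samples speak of wild-type mice. How many mice stand behind a sample is not stated, so errors and p-values here measure the spread between these samples.

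Follicle-stimulating hormone acts through its receptor on the granulosa cells of the follicle and drives follicle growth. Genes that sit side by side on a chromosome can share regulatory DNA without sharing a function. The neighbours of Fshr have different jobs, among them signalling at membranes, cell adhesion, repair of mismatched DNA bases, endocytosis and basal transcription. In the gene table of GRCm38.p6, 52 protein-coding genes lie from Tmem178 to the end of the chromosome. Counted in protein-coding genes, Tmem178 stands 47 places before Fshr, Srbd1 25, Prkce 24, Calm2 12, Epcam 11, Msh6 8, Ston1 3 and Gtf2a1l 2 places.

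RefSeq promoters of build GRCm38.p6 were at hand for 5 of the 8 members, namely Tmem178, Epcam, Msh6, Ston1 and Gtf2a1l. The 250 bases before the start site are shown for the 3 of them with a probe set above the filter on dim signals, so that the gene that differs most can be set beside a pair that differ less. All lie on the plus strand of chromosome 17, and capitals mark matches to the GC box GGGCGG or the CCAAT box CCAAT on either strand. The Tmem178 window is chr17:80944382-80944631, the Epcam window chr17:87635729-87635978 and the Msh6 window chr17:87974800-87975049.
Tmem178: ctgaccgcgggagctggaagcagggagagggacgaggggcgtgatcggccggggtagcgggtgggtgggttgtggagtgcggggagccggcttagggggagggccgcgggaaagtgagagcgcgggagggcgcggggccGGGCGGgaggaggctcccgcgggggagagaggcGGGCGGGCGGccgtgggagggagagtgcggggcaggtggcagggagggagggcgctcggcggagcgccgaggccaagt
Epcam: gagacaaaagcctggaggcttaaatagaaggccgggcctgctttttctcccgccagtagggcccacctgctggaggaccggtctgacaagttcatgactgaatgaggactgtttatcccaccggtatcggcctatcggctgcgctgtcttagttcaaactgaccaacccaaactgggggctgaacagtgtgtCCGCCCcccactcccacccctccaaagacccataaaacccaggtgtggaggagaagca
Msh6: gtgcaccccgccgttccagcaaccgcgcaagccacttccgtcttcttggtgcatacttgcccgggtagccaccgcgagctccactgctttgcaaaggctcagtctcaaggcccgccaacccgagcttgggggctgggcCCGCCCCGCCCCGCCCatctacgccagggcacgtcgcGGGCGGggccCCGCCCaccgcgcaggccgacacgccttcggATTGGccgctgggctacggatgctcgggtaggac

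The Tmem178 window is rich in G and C, at 77.2%, against 56.4% in the Epcam window, 70.8% in the Msh6 window and a median of 52.4% over 32851 promoters of the same length. It holds 3 GC boxes, whose first bases lie 111, 78 and 74 bases before the start site, the last of them overlapping the one before it. The Msh6 window holds 5 GC boxes, some of them overlapping, and a CCAAT box 34 bases before the start. The Epcam window holds 1 GC box, 58 bases before the start. All 5 member windows held a GC box, which 32.7% of all promoters hold. The same window of Fshr, at 36.8% G and C, held none. None of the 5 held the cAMP response element half-site TGACG, the SF-1 type half-site AAGGTCA or the TATA box TATAAA on either strand, which 17.8%, 4.08% and 12.4% of all promoters hold. A match or its absence describes these letters only.

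Trimmed means of the arrays ran from 80.6 to 98.4 as deposited and were made equal by scaling. Every signal below is scaled, has no unit and is not compared between probe sets, and means carry their SD (n = 3). Log2 differences are FORKO minus WT of log2(signal + 5.73), a scale that understates changes of dim probe sets. For members their standard error (SE) comes from the 3 arrays of each group, and for other genes from limma. A dim probe set is one whose mean signal over the 6 arrays lies under the median of all means, 20.4. Across the 22506 probe sets above the filter, FORKO replicate 1 correlated at 0.934 and 0.936 with the other FORKO arrays, while those correlated at 0.976 with each other and the WT arrays at 0.966 to 0.969. Fshr itself read 1.20, 11.2 and 11.7 on the FORKO arrays, against 99.6, 59.4 and 119 on the WT arrays. Its log2 difference was -2.90 ± 0.39 (SE; limma adjusted p = 0.0102). An exact permutation test over the 20 splits of the arrays gave a two-sided p of 0.1, which is the smallest this design can reach. Limma's adjusted p ranged from 3.02e-04 to 0.0599 with single arrays left out, with 0.0536 when WT replicate 1 was dropped and the highest value when WT replicate 3 was dropped. It is not known here whether its probes fall inside the deletion. Of the listed ovary markers, 5 of 6 for granulosa cells, 4 of 4 for theca cells and 6 of 8 for oocytes passed the dim filter, and 0 of 4 markers of testis germ cells did. None of them read 0 on any array.

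Tmem178 encodes a membrane protein of the endoplasmic reticulum that is known from mouse osteoclasts as a brake on calcium signals and on the induction of Nfatc1. Its only probe set, 1429175_at, read 96.4, 191 and 242 on the FORKO arrays, against 2115, 1794 and 2197 on the WT arrays. Every FORKO array lay far below every WT array, and FORKO replicate 1 was the lowest. The means were 176 ± 74.0 in FORKO and 2036 ± 213 in WT, so the FORKO mean was 8.67% of the WT mean. The log2 difference was -3.57 ± 0.39 (SE), the 4th lowest among the 22506 probe sets. Against the WT mean, FORKO replicates 1, 2 and 3 differed by -4.32, -3.37 and -3.04 on the log2 scale, a spread of 1.28, while the WT arrays spanned 0.29. Leaving out 1 array at a time moved the log2 difference between -3.85 and -3.20. In whole ovaries, fewer cells of a type and less RNA per cell cannot be told apart.

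Srbd1 encodes a protein with an S1 RNA-binding domain, and its biology is little known. It has a pair of probe sets that were designed from the same sequence record, so they are not independent. The suffix of 1436376_s_at marks probes shared by several transcripts. This probe set read 97.6, 144 and 129 on the FORKO arrays, against 631, 246 and 317 on the WT arrays. The groups did not overlap, and the WT arrays differed among themselves more than the FORKO arrays did, with a coefficient of variation of 51.5% in WT and 19.1% in FORKO. The FORKO mean was 31.0% of the WT mean, and the log2 difference was -1.55 ± 0.43 (SE). Probe set 1436375_at read 43.7, 89.4 and 112 on the FORKO arrays, against 180, 81.3 and 160 on the WT arrays. Here the groups overlapped, since WT replicate 2 lay below both FORKO replicates 2 and 3. Its log2 difference was -0.76 ± 0.51 (SE). Both probe sets were lowest in FORKO replicate 1, and within WT both were lowest in replicate 2. Without single arrays the differences ranged from -1.83 to -1.16 for 1436376_s_at and from -1.10 to -0.39 for 1436375_at.

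Msh6 encodes a protein that recognises base mismatches left by DNA replication. Its probe set 1416915_at read 239.9, 255 and 212 on the FORKO arrays, against 315, 363 and 281 on the WT arrays. The groups did not overlap, but the gap between the highest FORKO array and the lowest WT array was small. The means were 236 ± 21.5 in FORKO and 319.7 ± 41.4 in WT, and the log2 difference was -0.43 ± 0.13 (SE).

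**Figure D1:**
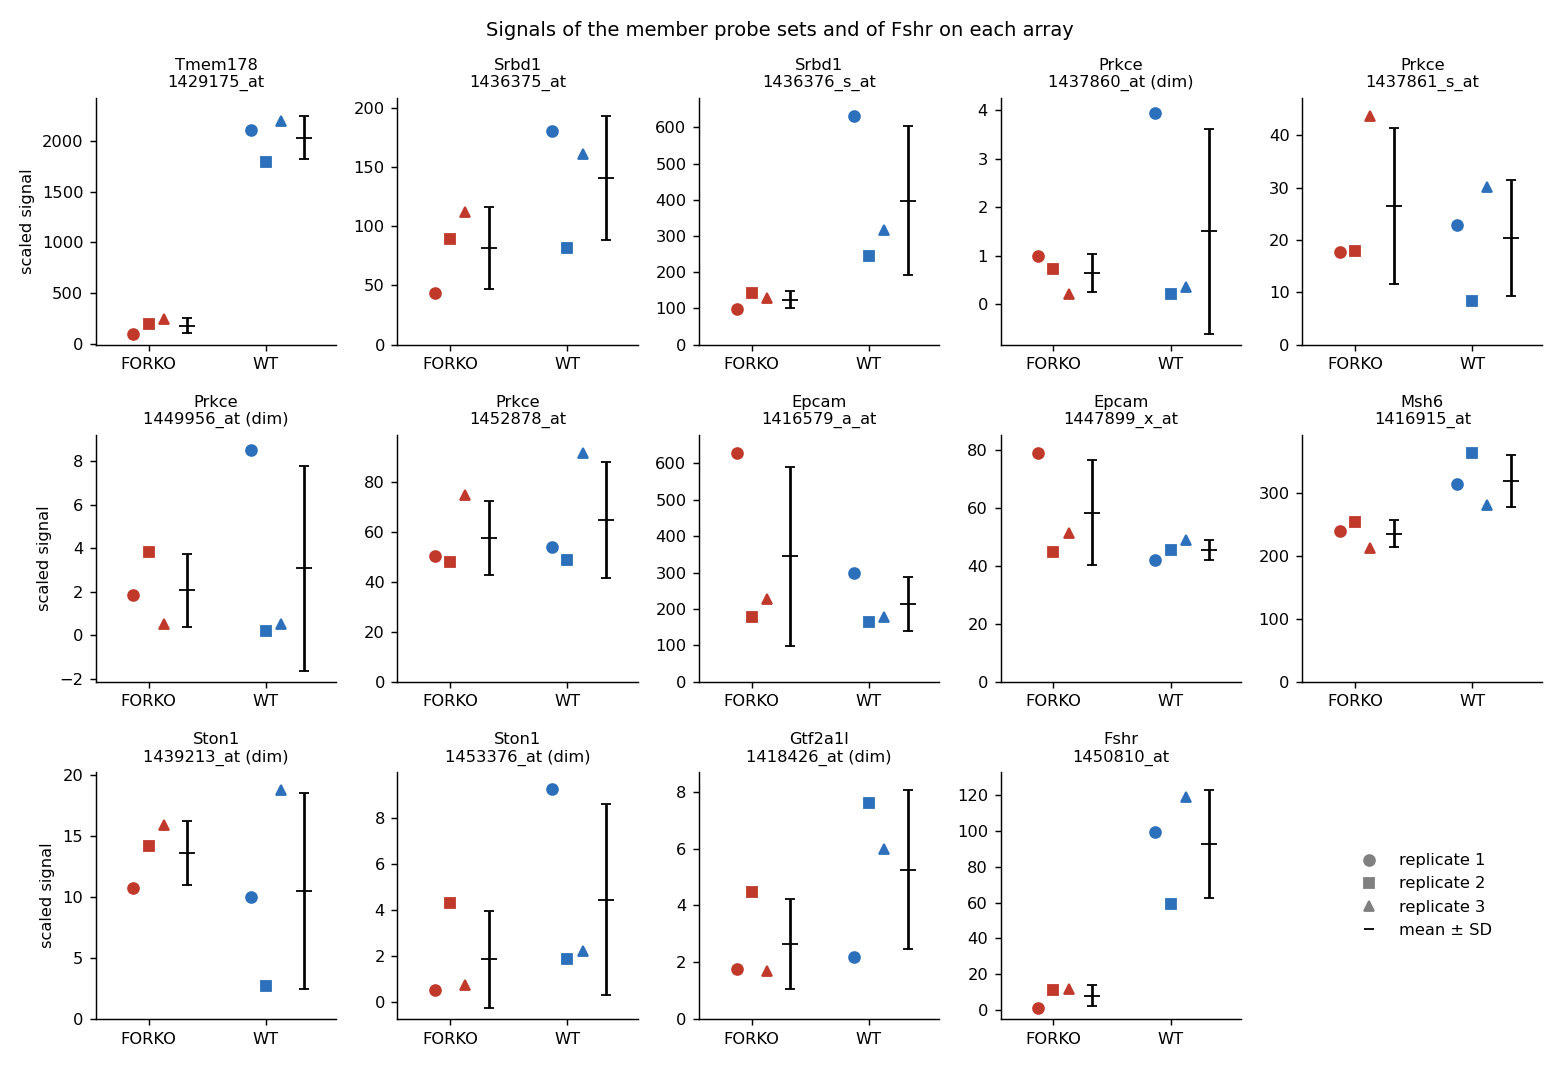
Scaled signal (linear axis) of each member probe set and of Fshr, with FORKO arrays in red and WT arrays in blue, a symbol for each replicate and a black bar for the mean ± SD (n = 3). "Dim" marks probe sets under the filter. Tmem178 at 96.4 to 242 in FORKO and 1794 to 2197 in WT is the widest separation among the members, and most other panels show overlapping groups.

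Epcam encodes an adhesion molecule of the surface of epithelial cells. Probe set 1416579_a_at read 627, 178 and 228 on the FORKO arrays, against 299.6, 165 and 179 on the WT arrays. The groups overlapped, and FORKO replicate 1 stood apart from the other arrays. Probe set 1447899_x_at, whose suffix marks probes that can bind other transcripts too, read 78.8, 44.8 and 51.3 on the FORKO arrays, against 42.0, 45.4 and 49.1 on the WT arrays. FORKO replicate 1 was again the highest, and the other FORKO arrays lay in or near the WT range. The log2 differences were 0.50 ± 0.61 and 0.29 ± 0.23 (SE). Without FORKO replicate 1 they were -0.04 and 0.07.

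The sum of epithelial markers parted from Epcam on FORKO replicates 2 and 3. These arrays lay within the WT range for Epcam 1416579_a_at and above every WT array for the marker sum. Bright probe sets weigh most in such a sum, and not every marker followed it. Wt1 and Msln lay within the WT range on both of these arrays, as Epcam 1416579_a_at did. The summed signal of 10 markers of surface and other epithelia was 2431, 1399 and 1506 on the FORKO arrays, against 956, 874 and 837 on the WT arrays. All 10 had a positive log2 difference, 2 of the 9 above the dim filter passed limma's test, and none read 0. The highest sum was that of FORKO replicate 1, the array with the highest Epcam signal. The leukocyte marker sum was also highest there, with 5871, 2072 and 3253 in FORKO and 2745, 1962 and 2317 in WT over 8 genes. Of these 8 genes 6 had a positive and 2 a negative log2 difference, with none past the test. Cd3e was lowest on FORKO replicate 1. Markers of oviduct epithelium had another order of arrays, with a sum over 5 genes of 97.1, 320.2 and 248 in FORKO and 48.2, 37.6 and 70.7 in WT, all 5 differences positive and none past the test. The part of these cell types in the Epcam signal was not tested. Smooth muscle markers had a negative log2 difference in 5 of 5 genes, of which 1 passed the test. Their summed signal was 920, 2058 and 2331 on the FORKO arrays, against 1858, 1774 and 2034 on the WT arrays. For that sum FORKO replicate 1 alone lay below the WT range, and the other FORKO arrays lay above it.

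Marker sums of oocytes and of theca and interstitial cells lay lower on every FORKO than on every WT array, as did Tmem178. The granulosa marker sum did not. The sum over 8 oocyte markers was 372, 545 and 582 on the FORKO arrays, against 1165, 995 and 1081 on the WT arrays. Of these 8 genes 7 had a negative log2 difference, 3 of the 6 above the dim filter fell in limma's test, and none read 0. Tmem178 was at 8.67% of its WT mean, and within FORKO both Tmem178 and the marker sum were lowest in replicate 1 and highest in replicate 3. The fall of Tmem178 was larger, with a log2 difference of -3.57, against -1.52 for Oosp1, the lowest of the 8 markers. The sum over 4 theca and interstitial cell markers was 9501, 9487 and 10389 on the FORKO arrays, against 12447, 13040 and 12678 on the WT arrays, with 3 of 4 differences negative and none past the test. The sum over 6 granulosa markers was 5796, 12685 and 13643 on the FORKO arrays, against 13426, 9911 and 11699 on the WT arrays, so that FORKO replicate 1 alone lay below the WT range. Of these 6 genes 4 had a negative and 2 a positive log2 difference, with none past the test. The part of oocytes, theca cells or granulosa cells in the Tmem178 signal was not tested.

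**Figure D2:**
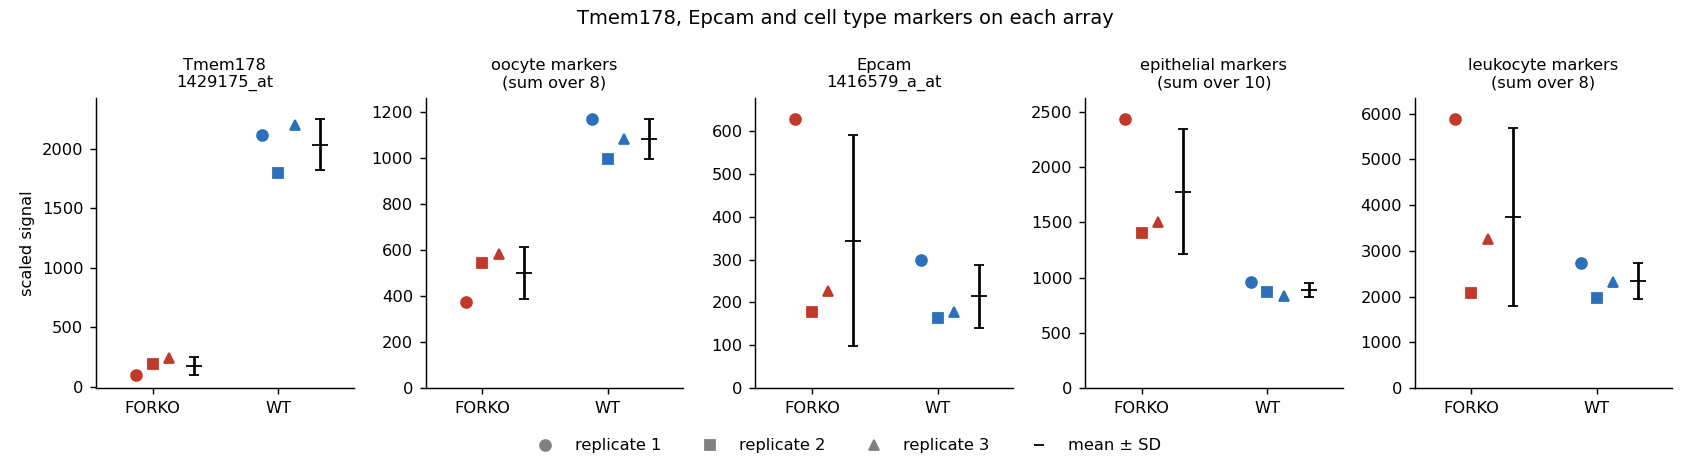
Scaled signal (linear axis from 0) of Tmem178 and of Epcam probe set 1416579_a_at beside the summed signals of oocyte, epithelial and leukocyte markers, with FORKO arrays in red and WT arrays in blue and black bars for the mean ± SD (n = 3). FORKO replicate 1, the red circle, is the lowest point for Tmem178 (96.4) and oocyte markers (372) and the highest for Epcam (627), epithelial (2431) and leukocyte markers (5871).

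Prkce encodes protein kinase C epsilon, an isoform switched on by diacylglycerol without calcium. It has 4 probe sets, of which 2 passed the dim filter. Probe set 1452878_at read 50.3, 48.0 and 74.8 on the FORKO arrays, against 54.0, 48.8 and 91.4 on the WT arrays. In both groups replicate 3 was the highest, and the groups overlapped almost fully. The log2 difference was -0.13 ± 0.32 (SE). The suffix of 1437861_s_at also marks probes shared by several transcripts. This probe set read 17.7, 17.9 and 43.6 on the FORKO arrays, against 22.8, 8.33 and 30.1 on the WT arrays. Its log2 difference was 0.31 ± 0.54 (SE), and its sign changed without WT replicate 2 or FORKO replicate 3. The other pair, 1437860_at and 1449956_at, lay under the filter, with signals from 0.208 to 8.51 and log2 differences of -0.15 ± 0.23 and -0.07 ± 0.45 (SE). No difference of Prkce was larger than its SE.

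Ston1 and Gtf2a1l, the members next to Fshr, were dim on every array. Ston1 encodes stonin 1, an adaptor in clathrin-mediated endocytosis. Its probe set 1439213_at read 10.7, 14.1 and 15.8 on the FORKO arrays, against 9.96, 2.71 and 18.7 on the WT arrays, and the groups overlapped. Probe set 1453376_at read 0.547, 4.28 and 0.739 on the FORKO arrays, against 9.24, 1.87 and 2.24 on the WT arrays. The log2 differences of the pair had opposite signs, 0.37 ± 0.46 and -0.39 ± 0.38 (SE). Gtf2a1l encodes a germ cell relative of the large subunit of the transcription factor TFIIA. Its probe set 1418426_at read 1.75, 4.47 and 1.69 on the FORKO arrays, against 2.18, 7.60 and 5.998 on the WT arrays, with a log2 difference of -0.38 ± 0.27 (SE). At such signals a difference between the groups was not detectable, and leaving out WT replicate 2 turned the sign for Ston1 1439213_at.

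In all, 8 of the 13 member probe sets, from 5 genes, passed the dim filter, and 5 did not. Over all 13, 9 log2 differences were negative and 4 positive. In limma's fit 2 member probe sets were past an adjusted p of 0.05, Tmem178 1429175_at and Srbd1 1436376_s_at, both lower in FORKO, where 0.595% of all tested probe sets were called lower, 1.06% higher and 1.65% either way. With the replicate number as a block the Srbd1 call was lost and 1 member call was left, as it was without each single array other than FORKO replicate 1. Groups did not overlap for 3 member probe sets past the filter, all lower in FORKO, where 10.4% of all tested probe sets were lower and 9.99% higher without overlap. Nothing is read from these counts, since the members were chosen on this contrast. Across all probe sets 372 passed, and 691 with the block. Of the 372, 64.0% were higher in FORKO, against 50.6% of the 346 called after scaling on the median of each array.

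**Figure D3:**
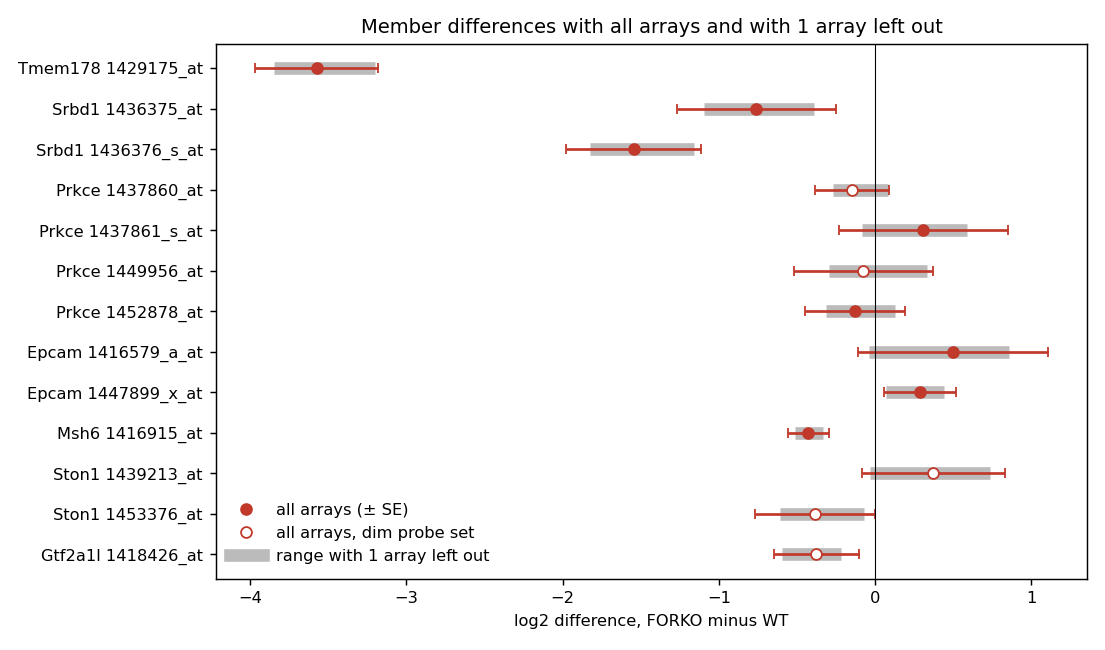
Log2 difference, FORKO minus WT, of each member probe set: the circle is the value over all 6 arrays with its SE, open for dim probe sets, and the grey bar spans the values with 1 array left out. Tmem178 at -3.57 and Srbd1 1436376_s_at at -1.55 lie farthest from 0. The bars of 6 probe sets, from Prkce, Epcam and Ston1, cross 0.

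The genes around the members were read from a list set by position, which holds every gene from Tmem178 to the end of the chromosome. The list starts at the member farthest from Fshr, so its border rests on a gene chosen with the contrast known. Of its 52 protein-coding genes, 43 had a probe set. With the probe set of highest mean signal standing for a gene, 31 genes of the list were tested, 5 of them members, 1 Fshr and 25 others. Of the 25 others, 1 fell and none rose in limma's test (3 had an unadjusted p under 0.05, as did 16.8% of all genes), where 0.839% of all 11199 genes fell and 1.3% rose, 2.14% in all. The block left the same 1 call. The gene that fell was Adcyap1, which encodes the neuropeptide PACAP and is the second protein-coding gene beyond Fshr. Its brighter probe set over all arrays read 0.328, 26.3 and 18.4 on the FORKO arrays, against 159, 529 and 295 on the WT arrays. The log2 difference was -4.16 ± 0.60 (SE, limma adjusted p = 0.0128). The FORKO mean of this probe set, 15.0, lay under the dim cutoff of 20.4, so the probe set passed the filter through its WT signals. With a pseudocount of 1 the log2 difference was -5.04, and with 16 it was -3.43. With this probe set held fixed, a choice made after seeing the data, the adjusted p ran from 1.89e-04 to 0.0697 over 15 alternatives, and the call was lost when WT replicate 2 (0.0697) or WT replicate 3 (0.0625) was dropped. Dropping WT replicate 2 also made the gene's other probe set the brighter one, for which the adjusted p was then 0.281. With all arrays that other probe set did not pass either (log2 difference -3.04, limma adjusted p = 0.0751).

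Between Tmem178 and Fshr the other genes differed little. None of the 22 tested there passed limma's test, with or without the block, and 1 had an unadjusted p under 0.05. Their log2 differences ran from -0.32 to 0.89 with a median of -0.07, against a median of -0.02 over all genes. The highest was that of Ttc7, at 0.89 ± 0.35 (SE; limma adjusted p = 0.277). Thumpd2, the gene next to Tmem178, read 77.2, 91.6 and 65.3 on the FORKO arrays, against 84.8, 71.6 and 73.9 on the WT arrays, and its log2 difference was 0.01 ± 0.19 (SE; limma adjusted p = 0.985). Prkce, the gene next to Srbd1 on the side of Fshr, had the -0.13 given above, and Prepl, the nearest gene on the other side that passed the dim filter, had -0.07 ± 0.18 (SE; limma adjusted p = 0.905). Ppp1r21, the nearest gene before Fshr that passed the dim filter, had 0.08 ± 0.18 (SE; limma adjusted p = 0.889). Thumpd2, Prepl and Ppp1r21 were singled out for their place beside a member or Fshr. Groups did not overlap for 4 of the 25 others, all lower in FORKO, or 16.0%, where the share over all genes was 12% lower and 22.6% either way. On the rest of chromosome 17, 7 of 487 genes rose and none fell (78 had an unadjusted p under 0.05, and with the block 14 rose and 1 fell). Lhcgr, the gene between Gtf2a1l and Fshr, was not analysed here.

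**Figure D4:**
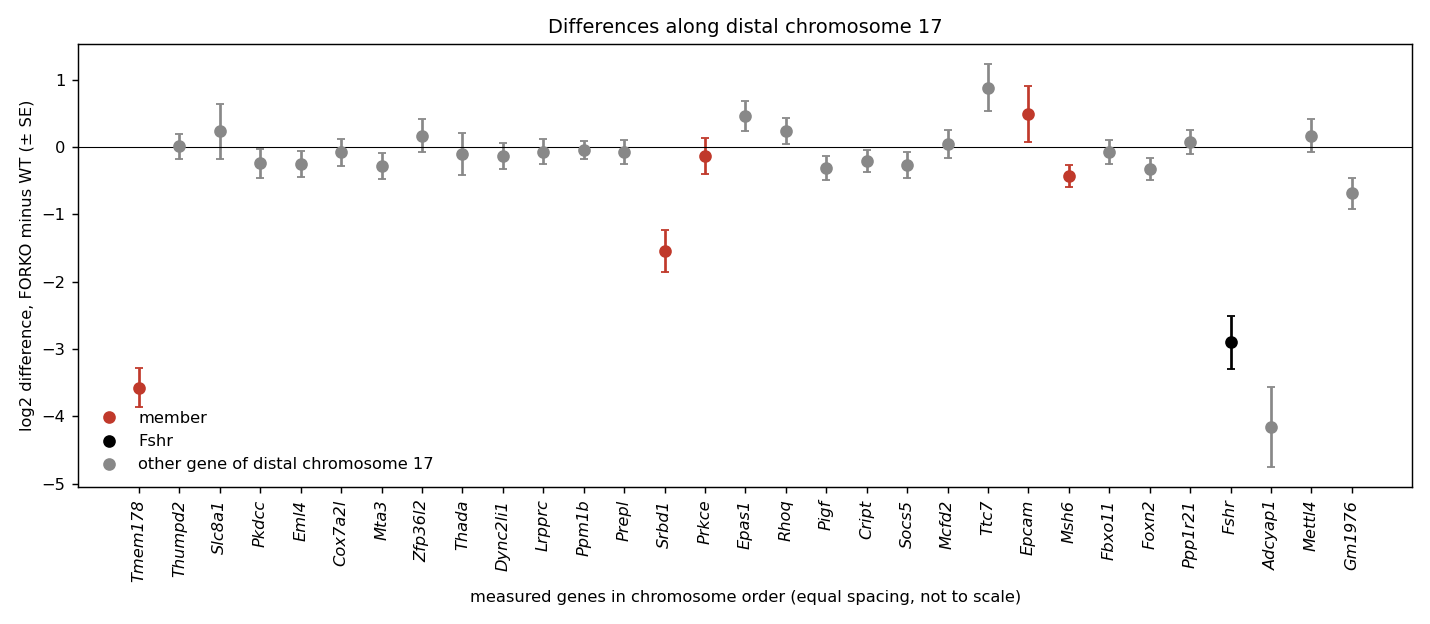
Log2 difference, FORKO minus WT, with limma's SE for the 31 tested genes from Tmem178 to the end of chromosome 17, in chromosome order with equal spacing; members are red, Fshr black and other genes grey. Tmem178 (-3.57), Srbd1 (-1.55), Fshr (-2.90) and Adcyap1 (-4.16) lie apart, and the other genes lie from -0.68 to 0.89.

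Partners of the members in their known pathways were counted from lists by function, with the members left out. Beside these counts, 0.839% of all genes fell, 1.3% rose and 16.8% had an unadjusted p under 0.05 in limma's fit. Of 14 genes of store-operated calcium entry and NFAT signalling, the setting in which Tmem178 is known, 1 rose and 13 did not pass, 6 had an unadjusted p under 0.05, and the median log2 difference was -0.02. The one that rose was Saraf, which limits store-operated calcium entry: it read 1073, 1276 and 1246 on the FORKO arrays, against 572, 654 and 647 on the WT arrays (log2 difference 0.93 ± 0.14, SE; limma adjusted p = 0.0157). The Saraf call was lost when any 1 WT array or FORKO replicate 3 was dropped, with adjusted p up to 0.0756. With the block Rcan2, a regulator of calcineurin named after its value was seen, also passed (log2 difference -1.08, limma adjusted p = 0.0419 with the block and 0.0899 without it).

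Of 10 genes of epithelial adhesion beside Epcam, 1 rose, 1 fell and 8 did not pass, 7 had an unadjusted p under 0.05, and the median was 0.54. Of the 10 differences 9 were positive and 1 was negative, that of Cldn1. Tspan8, a tetraspanin, rose and read 885, 285 and 272 on the FORKO arrays, against 131, 102 and 80.5 on the WT arrays (log2 difference 1.94 ± 0.40, SE; limma adjusted p = 0.0488). This call held in only 4 of 15 alternatives, with adjusted p from 0.00293 to 0.184, and was lost when any 1 WT array or FORKO replicate 3 was dropped, with another pseudocount, dim filter or variance model, and with quantile normalization or scaling on the median. Cldn1, a claudin of tight junctions, fell and read 23.8, 38.8 and 31.3 on the FORKO arrays, against 129, 72.1 and 94.4 on the WT arrays (log2 difference -1.48 ± 0.25, SE; limma adjusted p = 0.0234). It was lost when any 1 WT array or FORKO replicate 3 was dropped, with adjusted p up to 0.0965. FORKO replicate 1 was the highest array for Tspan8 and the lowest for Cldn1.

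No gene passed limma's test, with or without the block, in the lists around the other members. The counts with an unadjusted p under 0.05 stand beside a share of 16.8% over all genes. In 9 other mismatch repair genes the median was -0.07 and 3 had an unadjusted p under 0.05; the largest difference was that of Exo1, an exonuclease of the pathway, at -0.86 ± 0.35 (SE; limma adjusted p = 0.289). In 7 other genes of the protein kinase C family all 7 differences were positive, the median was 0.25 and 1 had an unadjusted p under 0.05; Prkcb had 159 ± 67.4 in FORKO and 84.4 ± 16.3 in WT (0.80 ± 0.29, SE). In 9 genes of calmodulin signalling the median was 0.12 and 3 had an unadjusted p under 0.05, and Calml4, a calmodulin-like gene, had 173 ± 49.1 in FORKO and 111 ± 19.3 in WT. In 10 genes of clathrin adaptors the median was 0.12 and 0 had an unadjusted p under 0.05, and the largest difference was that of Eps15, at 0.41 ± 0.20 (SE). In 7 genes of TFIIA and basal transcription the median was -0.03 and 0 had an unadjusted p under 0.05, and the TFIIA subunit gene Gtf2a2 had 141 ± 21.6 in FORKO and 184 ± 12.6 in WT.

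Likeness of pattern was measured by Pearson's correlation across the 6 arrays over genes past the dim filter, as a description in which the arrays share the group difference. The 5 named genes most like Tmem178 were Snrpe (r = 0.998), Oosp1 (0.998), Cdca7 (0.996), Rspo2 (0.995) and Meis2 (0.995). None of these lies on chromosome 17, which holds 518 of the 11199 tested genes. Oosp1, a gene made by oocytes, averaged 52.8 in FORKO and 161 in WT, and Rspo2, which enhances Wnt signals, averaged 40.3 in FORKO and 125 in WT. The gene most like Epcam was Irgm2 (0.997), an interferon-inducible GTPase with 767 in FORKO and 409 in WT. Srbd1 was most like Wapl (0.986), Msh6 most like Cenps (0.992) and Prkce most like Spr (0.995).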

How the data were processed

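Gene expression was measured in 3 FORKO and 3 WT ovary samples on 1-colour Affymetrix arrays. The authors deposited 1 linear intensity per probe set and array, computed with MAS5 per the submitters' processing notes. The target of any scaling there is not given in the sources used here, nor are detection calls. Of 45101 probe sets, 64 controls were left out. Each array was scaled to 1 mean after trimming 2% at each end, and log2(signal + 5.73) was taken, the pseudocount being the pooled 25th percentile. The dim filter removed probe sets whose mean signal was under 20.4, the median of means, and limma 3.58.1 (R 4.3.3) was run on the others (lmFit and eBayes with intensity trend, two-sided, Benjamini-Hochberg over all 22506, threshold 0.05). The fit was tested on simulated data.

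Genes and their order came from the platform annotation and the GRCm38.p6 gene table, matched by Entrez identifier; the build of the array design is not given, so gene coordinates are not printed. Groups came from the sample titles. The members and lists were chosen with earlier results of these data known. Named genes were the members, Fshr and Lhcgr (1 further gene of the rule is not reported here), up to 8 other distal genes that passed, up to 2 that passed per functional list or else the largest difference, and the nearest patterns. The titles number the replicates 1 to 3 in both groups without saying what a number shares. Deviations of same-numbered arrays correlated at 0.195, 0.134 and 0.358, and the block was run as a pairing taken from the data. Deviations of differently numbered arrays were not correlated, so these values do not establish a pairing. Alternatives were the normalization, pseudocount, dim filter, variance model, block, single arrays left out and the probe sets counted. Arrays give no counts, and their number limits the precision. Figures were drawn with matplotlib 3.10.9.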

Additional observations from a re-analysis of the deposited data

How the results depend on the processing

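The number of probe sets past the threshold, 372, was 221 without the dim filter, 191 with a filter at the 75th percentile of means and 691 with the replicate block, and it ran from 63 without WT replicate 2 to 860 without FORKO replicate 1. The count of other distal chromosome 17 genes, 1, kept that value under the other alternatives run and ranged from 0 to 1 with single arrays left out, being 0 without WT replicate 2, where the probe set standing for Adcyap1 also changed, and 0 without WT replicate 3. The log2 difference of Fshr, -2.90, was -3.69 with a pseudocount of 1 and -2.17 with a pseudocount of 16, ranged from -3.16 to -2.46 with single arrays left out, and could not be had with the stricter filter, which removed the probe set. The number of member probe sets past the threshold, 2, from which nothing is read, was 1 without the dim filter, with the stricter filter, without the intensity trend, with the block and without each array other than FORKO replicate 1. Besides these counts and the call of Rcan2, the block changed no call of a named gene. Over 16 alternatives the member log2 differences moved by less than 1 SD between replicates, except those of Ston1 1453376_at and Gtf2a1l with a pseudocount of 1 (-0.91 and -0.75). This SD is that of each probe set, so it is a loose measure where replicates vary much. The sign turned in at least 1 alternative for all 4 Prkce probe sets, Ston1 1439213_at and Epcam 1416579_a_at, the last of which ran from -0.04 to 0.85. Dim signals limit what can be said of Ston1, Gtf2a1l and the dim pair of Prkce probe sets.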
